A study of Ramazzottius varieornatus with 48 samples.

Results

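Transcript g2185.t1 was the only transcript of the gene g2185 in a table of 14532 transcripts of the tardigrade Ramazzottius varieornatus, and its best protein match in the study's annotation was the mitochondrial chaperone BCS1. It was chosen for its whole profile over 48 RNA sequencing libraries, after results from the same libraries were known. All 48 of its values were therefore part of the choice, and they are given as a description, with standard errors but with no test. After exposure to ultraviolet C (UVC), its mean level in the shorter of the time courses was 14.6-fold that of the non-exposed animals at 9 h, the 21st largest log2 change of 12088 transcripts. In the longer course, which had its own and higher non-exposed level, it was at most 3.46-fold higher, at 12 h (rank 736), and overlapped the non-exposed libraries at 48 h and 72 h.

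BCS1 is known from yeast and human cells as an AAA-family ATPase of the inner mitochondrial membrane. It moves the folded Rieske iron-sulfur protein from the matrix across that membrane and into the cytochrome bc1 complex, complex III of the respiratory chain, as a late step of that complex's assembly. The Rieske protein carries an iron-sulfur cluster that is built in the matrix and accepts electrons from reduced ubiquinone, so the iron-sulfur cluster pathway, ubiquinone synthesis and the other respiratory complexes are the neighbours of BCS1 in function. What the g2185 protein does in a tardigrade is not known from these data.

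The libraries came from whole animals of the strain YOKOZUNA-1, 30 animals per library, exposed without a covering layer of water to a UVC lamp and then kept in water in the dark at 22 °C. The Short time course held non-exposed animals and animals collected every hour from 1 to 6 h after UVC and again at 9 h and 12 h, and the Long time course held its own non-exposed animals and animals collected at 12 h, 18 h and 24 h and then at 36 h, 48 h and 72 h, with 3 libraries in each of the 16 groups. According to the methods, lamp output and exposure time differed slightly between the courses. The Long animals were fed algae at 12 h, and the libraries of each group were selected by RNA quality. The methods describe animals that were exposed together and sampled at successive hours, so libraries of different hours may share an exposure. Non-exposed animals were collected only at the start of each course, so exposure, time since collection and, from 12 h in Long, feeding cannot be told apart. Whole animals were used, so a change in the share of a cell type and a change in RNA per cell cannot be told apart either.

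Levels are given in TPM, a length-scaled share of the library's RNA that adds up to the same total in every library and holds no record of sequencing depth. As a sign of how complete a library was, the transcripts with a mean of at least 20 TPM that were listed at 0 were counted, and this number ranged from 8 to 792 with a median of 31.5. It was above 250 in 5 libraries, namely Short 4 h replicate 3, Short 5 h replicate 2, Long non-exposed replicate 2, Long 12 h replicate 2 and Long 24 h replicate 1. Vitellogenin (g772), the precursor of yolk, ranged from 363 TPM in a Long 18 h library to 7920 TPM in a Long 36 h library and was called at none of the 14 time points (lowest limma adjusted p = 0.262).

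In the Short course g2185 was at 93.1, 123 and 48.6 TPM in the 3 non-exposed libraries, with a mean of 88.2 ± 37.4 (SD, n = 3). At 1 h it was at 86.2, 163 and 73.4 TPM, which overlapped the non-exposed range. At 2 h it was at 368, 430 and 302 TPM, so that every library lay above every non-exposed library, as for 7.12% of the 12088 transcripts with a mean of at least 1 TPM, and above every 1 h library. The onset, defined as the first time point from which all 3 libraries stayed above all 3 non-exposed libraries to the end of the course, was thus 2 h. The mean was 4.16-fold the non-exposed mean at 2 h, a log2 fold change of 2.13 (SE 0.34), against 0.29 (SE 0.34) at 1 h, when the median of all transcripts was -0.28 and when leaving out single libraries moved the value of g2185 between -0.08 and 0.58. The step from 1 h to 2 h was 1.83 on the log2 scale (SE 0.34), and 14.7% of transcripts also had all 2 h libraries above all 1 h libraries.

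At 3 h g2185 was at 188, 323 and 204 TPM. The log2 change from 2 h to 3 h was -0.65 (SE 0.34), and the libraries of these groups overlapped, so a drop at 3 h was not detectable. At 4 h the values were 549, 461 and 466 TPM, all above those at 3 h, a step of 1.08 (SE 0.34) that 14.8% of transcripts shared in the sense that their libraries did not overlap either. The 5 h libraries were at 708, 351 and 641 TPM, overlapping those at 4 h, and the lowest of them was replicate 2, in which 297 abundant transcripts were listed at 0. Without that library the log2 fold change at 5 h was 3.02 in place of 2.70. The part of library completeness in the 5 h spread was not tested.

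The 6 h libraries were at 752, 938 and 675 TPM, a mean of 788 ± 135 (SD, n = 3). At 9 h the values were 1290, 1311 and 1249 TPM, the highest group mean (1284 ± 31.6 TPM) and the tightest, with a coefficient of variation of 2.46%. All 9 h libraries lay above all 6 h libraries, as they did for 10.7% of transcripts, and the log2 fold change against non-exposed animals reached 3.95 (SE 0.34), where the libraries of 15.2% of transcripts all lay above the non-exposed ones. At 12 h the libraries spread to 1429, 722 and 996 TPM, so that the single highest value of all 48 libraries was at 12 h although the peak of the group means was at 9 h. The change from 9 h to 12 h was -0.35 (SE 0.34) with overlapping libraries, so a decline within the Short course was not detectable.

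**Figure D1:**
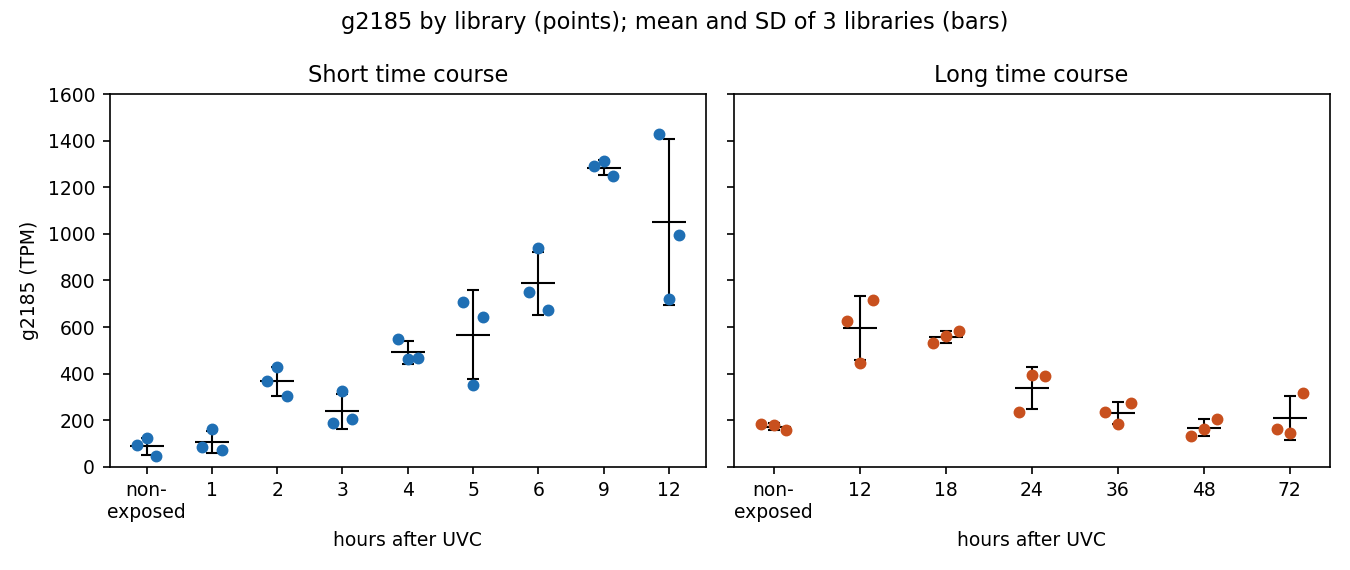
Level of g2185 in TPM (vertical axis) in each library (points) by hours after UVC (horizontal axis), for the Short and Long time courses; horizontal bars are group means and whiskers are SD of 3 libraries. The Short groups rise from a mean of 88.2 TPM to 1284 TPM at 9 h, and the Long groups fall from 596 TPM at 12 h to 167 TPM at 48 h.

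In the Long course the non-exposed libraries were at 182, 178 and 156 TPM (172 ± 14.1, SD, n = 3), and these 3 libraries were among the less complete ones, with 163 to 255 abundant transcripts listed at 0. At 12 h g2185 was at 627, 445 and 716 TPM, the highest mean of the course (596 ± 138 TPM). At 18 h it was at 530, 561 and 582 TPM, within the 12 h range. The log2 fold changes were 1.76 (SE 0.29) at 12 h and 1.69 (SE 0.29) at 18 h, so the level was held over these 6 h within the spread of the libraries.

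The decline came between 18 h and 24 h, when the level dropped to 234, 394 and 389 TPM and all libraries lay below all 18 h libraries. This step was -0.75 on the log2 scale (SE 0.29), and 6.24% of transcripts had all their 24 h libraries below all their 18 h libraries. The lowest 24 h value came from replicate 1, the least complete library of the series with 792 abundant transcripts listed at 0. The other 24 h libraries were still below the lowest 18 h library, and without replicate 1 the log2 fold change at 24 h was 1.19 in place of 0.94. At 36 h the values were 235, 183 and 276 TPM, and the lowest of them exceeded the highest non-exposed library by less than 1 TPM, a separation that 10.3% of transcripts showed at 36 h.

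At 48 h g2185 was at 132, 164 and 205 TPM and at 72 h at 164, 145 and 317 TPM, both overlapping the non-exposed range. The log2 fold changes were 0.41 (SE 0.29) at 36 h, -0.06 (SE 0.29) at 48 h and 0.19 (SE 0.29) at 72 h. The direction at 48 h and 72 h depended on single libraries, since leaving out 1 library at a time moved the value between -0.22 and 0.09 at 48 h and between -0.15 and 0.41 at 72 h. The high 72 h value was from replicate 3 alone.

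Counted over the courses, all exposed libraries lay above all non-exposed libraries at 7 of 8 time points in Short and at 4 of 6 in Long. As many or more such time points were found for 1.09% of the 12088 transcripts in Short and for 4.09% in Long. Every time point of a course was compared with the same 3 non-exposed libraries, so these time points were not independent of each other. Libraries of different hours may also come from animals exposed together. Ordered by mean level over all 16 groups, Short 9 h (1284 TPM) was followed by Short 12 h (1049 TPM), Short 6 h (788 TPM), Long 12 h (596 TPM), Short 5 h (567 TPM), Long 18 h (558 TPM) and Short 4 h (492 TPM), and each of these neighbours in the order overlapped the next. The only gap between neighbours lay below Short 4 h, whose lowest library stood above all Short 2 h libraries. The lower groups, from Short 2 h (367 TPM) down to Short non-exposed (88.2 TPM), again overlapped from each to the next.

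Set against the other transcripts, g2185 was already in the upper part of the range without exposure and moved to among the most abundant. By the median of its TPM ranks in the 3 libraries of a group, it ranked 2064th of 14532 in Short non-exposed animals and 84th at Short 9 h. In Long it ranked 1045th without exposure, 207th at 12 h and 1024th at 72 h. By log2 fold change it ranked 204th of 12088 at Short 2 h, 43rd at 6 h, 21st at 9 h and 22nd at 12 h, but 736th at Long 12 h and 1646th at Long 24 h. The residual SD between its libraries was 0.43 on the log2 scale in Short and 0.36 in Long, against medians of 0.45 and 0.54 over the transcripts with a mean of at least 20 TPM.

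The 12 h groups were the only time point collected in both courses. The Short 12 h libraries (722 to 1429 TPM) all lay above the Long 12 h libraries (445 to 716 TPM), but by a margin of less than 7 TPM between the nearest ones. The level in Short was higher by 0.79 on the log2 scale (SE 0.32), and for 7.70% of transcripts all Short libraries lay above all Long libraries at 12 h. The non-exposed groups differed the other way, with Short lower by 1.05 (SE 0.32), no overlap between the libraries, and 12.7% of transcripts with all Long non-exposed libraries above all Short ones. Both differences widened the gap in fold change, which was 11.9-fold in Short and 3.46-fold in Long.

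The difference between these fold changes was 1.84 on the log2 scale (SE 0.45), and 12.3% of transcripts differed more than g2185 in either direction. Without the 5 libraries with more than 250 abundant transcripts at 0, a check added after seeing the data, the difference in level at 12 h was 0.59 and that between the fold changes 1.62. Abundant transcripts at 0 numbered 18, 11 and 18 in Short 12 h and 95, 257 and 150 in Long 12 h. They numbered 32, 145 and 18 in Short non-exposed and 166, 255 and 163 in Long non-exposed libraries. The check left the other Long libraries in, so the part of completeness in these differences was not tested. The 12 h groups of both courses shared a direction and differed in size. Part of the difference in fold change was the gap of 1.05 between the non-exposed groups, collected without UVC and before the 12 h feeding. For the levels at 12 h, the course, its exposure, its feeding and its library set cannot be told apart as origins. Whether the Long animals were fed before or after the 12 h sampling is not stated.

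**Figure D2:**
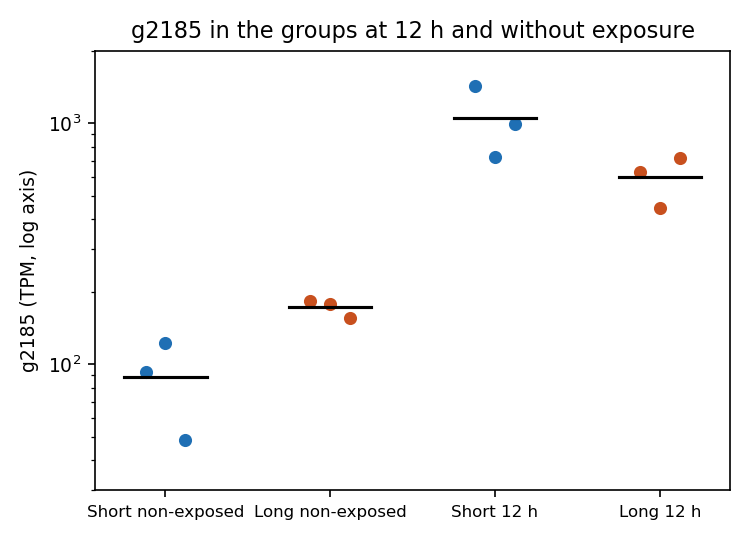
Level of g2185 in TPM on a logarithmic axis in the non-exposed and 12 h groups of both courses; points are libraries and lines are group means. Long lies above Short without exposure (172 against 88.2 TPM) and below it at 12 h (596 against 1049 TPM).

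The other transcripts of the pathway were taken from lists drawn up from the study's annotation, and these lists came from tables of transcripts that the study had found to be higher on these same samples. Their direction, their adjusted p-values and the number of them called higher are therefore not independent evidence. Shares of all transcripts are given beside these numbers as a reference, and not as a test of the listed transcripts. For these transcripts log2(TPM + 1) at each exposed time point was tested against the non-exposed libraries of the same course with limma, and a transcript was called with a Benjamini-Hochberg adjusted p under 0.05 over 12088 transcripts and a log2 fold change beyond 1. Of all transcripts, 6.17% were called higher at 1 or more of the 14 time points and 12.9% were called lower. This balance depended on scaling and on the fit. The main counts were 746 higher and 1560 lower. They became 887 and 977 under median scaling and 904 and 1103 under quantile normalization. They were 627 and 643 when each fit held just the groups compared, and 1260 and 1952 without the 5 least complete libraries.

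Of the 12 transcripts for iron-sulfur proteins and their assembly, 8 were called higher at some time point and none was called lower. In Short 7 of the 12 were called higher, against 3.57% of all transcripts, and in Long 4 were, against 3.04%. Over both courses 4 of the 12 were called when each fit held just the groups compared. Their median log2 fold change was 1.14 at Short 9 h, where the median of all transcripts was 0.12, 1.18 at Long 12 h, where that of all transcripts was 0.01, and 0.31 at Long 72 h, where it was -0.14. The number of these 12 called higher was 4 at Short 9 h (background 2.31%), 3 at Long 12 h (background 0.546%) and 0 at Long 72 h (background 2.12%).

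Of the clients of cluster assembly, SDHB (g10987), the iron-sulfur subunit of complex II, was called at the most time points. It was at 159, 192 and 171 TPM in Short non-exposed libraries and at 610, 618 and 640 TPM at Short 12 h, without overlap, as for 11.9% of transcripts at that hour. The log2 fold change was 1.84 (SE 0.21, limma adjusted p = 1.52e-05), and it was called higher at 5 Short and 5 Long time points, the last at Long 48 h. Of these 10 calls, those at Short 4, 6, 9 and 12 h and at Long 18 h were kept with any 1 library left out. When the fit held just the groups compared, those at Short 6, 9 and 12 h were kept. Those at Short 4 h (limma adjusted p = 0.135) and Long 18 h (0.103) were then lost. LIAS (g5798), the lipoyl synthase that adds sulfur to the lipoic acid cofactor, was at 120, 58.7 and 69.6 TPM without exposure and at 284, 341 and 251 TPM at Short 9 h. LIAS was higher by 1.86 on the log2 scale (SE 0.24, limma adjusted p = 6.31e-05), and it was called at 7 Short time points from 2 h on. These were also the hours at which g2185, judged by overlap of libraries and not by calls, stayed above its non-exposed range. LIAS was called at no Long time point. Each of the 7 calls of LIAS was kept with any 1 library left out. When the fit held just the groups compared, only its call at Short 9 h was kept (limma adjusted p = 0.0456). Its other calls were then lost, with adjusted p between 0.0778 at Short 12 h and 0.32 at Short 4 h.

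Of the complex I subunits, NDUS2 (g1157) was at 79.4, 89.7 and 74.7 TPM in Long non-exposed libraries and at 178, 232 and 189 TPM at Long 12 h. This was a log2 fold change of 1.28 (SE 0.19, limma adjusted p = 0.0108). NDUS7 (g5497) was higher at Short 12 h by 1.58 (SE 0.29, limma adjusted p = 0.00221), a call kept with any 1 library left out. It was also called at Long 12 h (1.63, adjusted p = 0.0279, up to 0.0924 in the 4 cases where leaving out 1 library ended the call) and had its largest change at Long 18 h, 1.79 (SE 0.32, limma adjusted p = 0.0177), where the call was lost without Long 18 h replicate 3 (adjusted p = 0.0905) or without replicate 2 of that group (adjusted p = 0.0640). NDUS1 (g2904), the 75 kDa subunit, was called only at Short 9 h, with a log2 fold change of 1.31 (SE 0.24, limma adjusted p = 0.0021).

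The matrix assembly factors were called mainly in Short. Frataxin (g10681), which stimulates cluster synthesis, was at 8.15 and 25.3 TPM and listed at 0 in the third Short non-exposed library, and at 80.0, 42.8 and 71.9 TPM at Short 6 h. The log2 fold change was 3.36 (SE 0.81, limma adjusted p = 0.0223). This call was lost without Short non-exposed replicate 2, the library at 0 (adjusted p = 0.121), and also when Short 6 h replicate 1 (adjusted p = 0.0874) or replicate 3 (adjusted p = 0.0763) was left out. Its other call, at Short 12 h (3.06, adjusted p = 0.034), was lost without Short non-exposed replicate 1 or 2 or any of the Short 12 h libraries (adjusted p up to 0.206). IscA-like 2 (g1384), which hands clusters to later acceptors, was higher at Short 6 h by 1.97 (SE 0.41, limma adjusted p = 0.00796), a call lost without Short non-exposed replicate 2 (adjusted p = 0.0588) or Short 6 h replicate 3 (adjusted p = 0.0518). At Short 5 h it was higher by 1.79 (adjusted p = 0.0184, 0.0838 without Short non-exposed replicate 2). NFS1 (g6954), the cysteine desulfurase that supplies the sulfur, was higher at Short 9 h by 1.55 (SE 0.28, limma adjusted p = 0.002) and at Short 12 h by 1.34 (SE 0.28, limma adjusted p = 0.00639), both kept with any 1 library left out. At Long 18 h it was higher by 1.63 (SE 0.33, limma adjusted p = 0.0279), a call lost without Long non-exposed replicate 1 or without any of the Long 18 h libraries (adjusted p between 0.0730 and 0.107).

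The remaining 4 transcripts were not called, namely ISCA1 (g1464), a further cluster carrier of the matrix, and CIAO2B (g3651), CIAO3 (g7375) and anamorsin (g2693), which belong to cluster assembly in the cytosol. Their lowest limma adjusted p-values were 0.0587 at Short 5 h, 0.0626 at Long 12 h, 0.173 at Long 18 h and 0.14 at Long 12 h, in that order. CIAO2B was at 16.8, 3.18 and 50.3 TPM in Long non-exposed libraries and at 133, 167 and 89.6 TPM at Long 12 h, which did not overlap, as in 8.22% of transcripts. No cytosolic member of the list was therefore called at any time point.

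**Figure D3:**
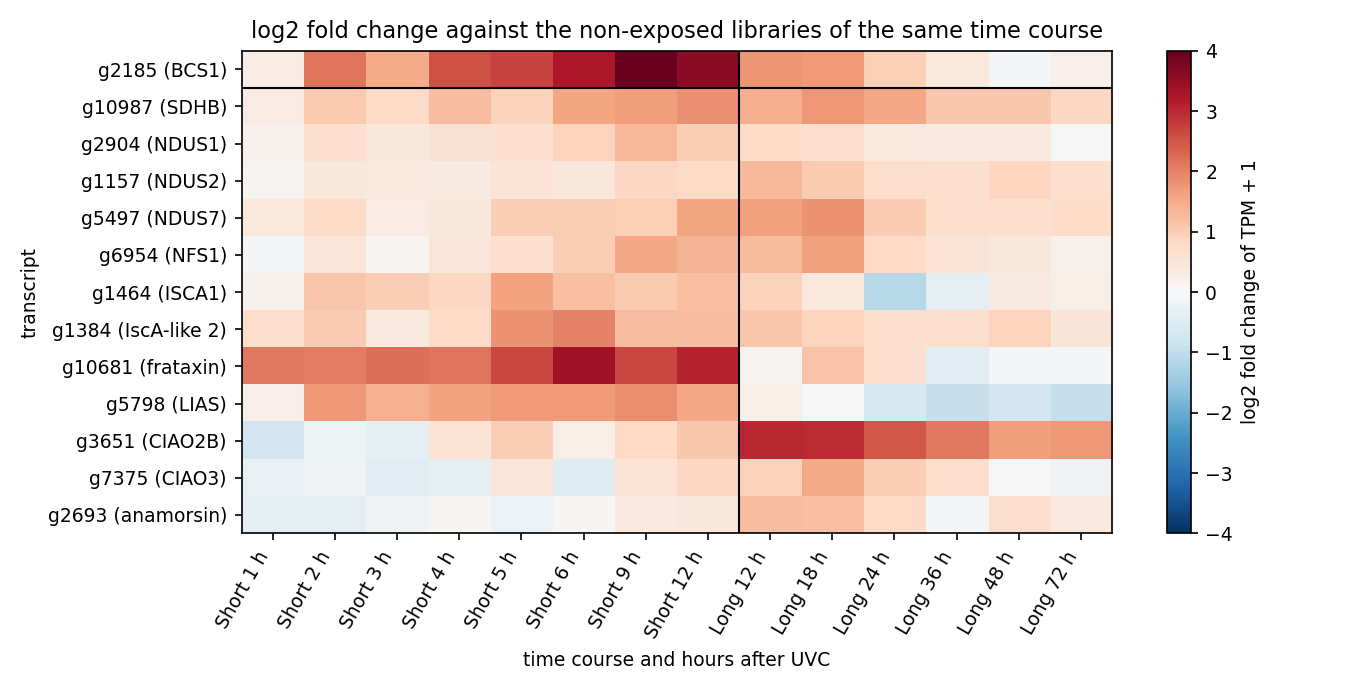
log2 fold change of TPM + 1 (colour) against the non-exposed libraries of the same course for g2185 and the 12 iron-sulfur transcripts (rows) at each of the 14 exposed time points (columns). g2185 has the deepest colour at Short 9 h (3.95), and frataxin, which was low without exposure, reaches 3.36 at Short 6 h.

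Of the 7 transcripts for ubiquinone synthesis and other parts of the respiratory chain, all 7 were called higher at some time point, 5 of them in Short and 2 in Long, and 3 when each fit held just the groups compared. The share of all transcripts called higher at some time point was 6.17%. COQ7 (g5498), the hydroxylase of a late step of ubiquinone synthesis, was at 24.7, 87.2 and 28.1 TPM without exposure and at 249, 187 and 238 TPM at Short 2 h. COQ7 was higher there by 2.47 on the log2 scale (SE 0.33, limma adjusted p = 0.000289), and it was called at all 8 Short time points, 1 h included. At 1 h its libraries (116, 108 and 80.7 TPM) still overlapped its non-exposed range, as those of g2185 did. The 1 h call (1.33, limma adjusted p = 0.0444) was lost in 14 of the 27 fits with 1 Short library left out (adjusted p up to 0.184). Cytochrome c (g2875), which takes electrons from complex III, was higher at Short 4 h by 1.75 (SE 0.23, limma adjusted p = 0.00022) and was called at 7 Short time points.

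Alternative oxidase (g11363), which passes electrons from ubiquinol to oxygen without complex III, was at 64.6, 44.1 and 43.0 TPM without exposure and at 119, 174 and 159 TPM at Short 9 h. The difference was 1.56 on the log2 scale (SE 0.32, limma adjusted p = 0.0061). COX15 (g2188), which makes heme A for complex IV, was higher at Short 5 h by 1.55 (SE 0.32, limma adjusted p = 0.00851). These calls of COQ7, cytochrome c, alternative oxidase and COX15, at the hours given, were kept with any 1 library left out. Those of COQ7 (adjusted p = 0.172), cytochrome c (0.163) and COX15 (0.316) were lost when the limma fit held just the groups compared. The 2 members called in Long were ATP synthase subunits O (g676) and f (g4373), at 48 to 72 h, when g2185 overlapped its non-exposed range. The call of subunit O at 48 h (1.20, limma adjusted p = 0.0468) was lost in 17 of the 21 fits with 1 Long library left out (adjusted p up to 0.158, without Long 48 h replicate 1). At 72 h (1.19, adjusted p = 0.0308) it was lost in 5 of them (up to 0.111). The call of subunit f at 72 h (1.32, adjusted p = 0.0199) was lost without replicate 1 or 2 of Long non-exposed or of Long 72 h (up to 0.0761).

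The remaining mitochondrial lists were more mixed. Of 8 transcripts for mitochondrial chaperones, proteases and translation, 6 were called higher and 1 lower at some time point (6.17% and 12.9% of all transcripts). The number called higher was 3 without Long non-exposed replicate 2, and none was called lower without replicate 2 or 3 of that group or without Long 72 h replicate 1 or 2. GTPase Era (g12780), a factor of mitochondrial ribosome assembly, was higher at Short 12 h by 1.54 (SE 0.28, limma adjusted p = 0.00255). AFG3-like protein 2 (g12719), the subunit of a protease of the inner membrane that is an AAA ATPase like BCS1, was called higher at Short 9 h by 1.27 (SE 0.34, limma adjusted p = 0.0367) and lower at Long 72 h (log2 fold change -1.03, SE 0.26, limma adjusted p = 0.0193). Its call at 9 h was lost without any 1 of the 6 Short non-exposed and 9 h libraries (adjusted p between 0.0689 and 0.155). The mitochondrial ribosomal protein L15 (g13022) and methyltransferase-like protein 17 (g9241), which acts in mitochondrial translation, were higher by 2.59 at Long 72 h (SE 0.73, limma adjusted p = 0.0304) and by 1.48 at Long 18 h (SE 0.27, limma adjusted p = 0.0192), and both calls were lost in some settings with 1 library left out (adjusted p up to 0.0993 for L15, with Long 72 h replicate 1 left out, and up to 0.0873 for methyltransferase-like protein 17, with replicate 2 of Long 18 h left out).

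Of 16 other mitochondrial transcripts, 7 were called higher and 1 lower (6.17% and 12.9% of all transcripts). Without Long 24 h replicate 1, the least complete library, 11 were called higher. SELO (g5548), an adenylyltransferase that attaches AMP to proteins, was at 69.1, 88.7 and 60.5 TPM without exposure and at 486, 411 and 351 TPM at Short 9 h. Its log2 fold change was 2.50 (SE 0.30, limma adjusted p = 2.3e-05), and it was called at 6 Short and 2 Long time points, the latter at 12 and 18 h. CHCHD2 (g3585), a protein of the intermembrane space, was higher at Short 9 h by 1.84 (SE 0.26, limma adjusted p = 0.000182), and glutaryl-CoA dehydrogenase (g5408), of lysine and tryptophan breakdown, at Short 12 h by 1.83 (SE 0.20, limma adjusted p = 7.97e-06). GHITM (g13195), of the inner membrane, was higher at Short 12 h by 1.70 (SE 0.17, limma adjusted p = 4.09e-06). The member called lower was MPC2 (g4629), part of the pyruvate carrier, at Short 2 h (log2 fold change -1.22, SE 0.26, limma adjusted p = 0.0235), a call lost without any 1 of the Short 2 h libraries or without Short non-exposed replicate 2 (adjusted p between 0.0632 and 0.115).

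Outside mitochondria, 13 of 14 ubiquitin-proteasome transcripts were called higher (6.17% of all transcripts) and none lower (12.9%) at some time point, all 13 in Short and 2 in Long. Only 8 were called higher without Short non-exposed replicate 2, and as many without replicate 3 of that group. NGLY1 (g12708), which removes sugar chains from proteins on their way to the proteasome, was at 288, 205 and 242 TPM without exposure and at 1588, 913 and 1637 TPM at Short 12 h. Its log2 fold change was 2.45 (SE 0.26, limma adjusted p = 7.66e-06). Polyubiquitin (g1328) was higher at Short 6 h by 1.77 (SE 0.19, limma adjusted p = 1.42e-05), and the autophagy receptor sequestosome-1 (g422) at Short 12 h by 1.93 (SE 0.17, limma adjusted p = 9.98e-07). USP14 (g13012), a deubiquitinase of the proteasome, was higher at Short 9 h by 1.53 (SE 0.21, limma adjusted p = 0.000103) and at Short 12 h by 1.55 (SE 0.21, limma adjusted p = 8.73e-05), both kept with any 1 library left out. The calls at Short 6 h and Long 12 h were lost with some single libraries left out (adjusted p up to 0.0508 and 0.107). USP14 was also higher at Long 18 h by 1.94 (SE 0.33, limma adjusted p = 0.0139), a call lost without Long 18 h replicate 2 (adjusted p = 0.0615) or replicate 3 (adjusted p = 0.0611). Of 4 cytosolic chaperones, 1 was called higher without Long 72 h replicate 1 or 2. In the main fit 3 were called higher and none lower (6.17% and 12.9% of all transcripts), 1 in Short and 2 in Long. They were CHORDC1 (g1709) at Long 12 h by 1.76 (SE 0.37, limma adjusted p = 0.0402), HSP70 B2 (g13851) at Long 72 h by 1.21 (SE 0.35, limma adjusted p = 0.0335) and DNAJC17 (g4452) at Short 12 h by 1.07 (SE 0.24, limma adjusted p = 0.0122), and each call was lost with some single libraries left out (adjusted p up to 0.114 for CHORDC1 with Long 12 h replicate 3 left out, 0.160 for HSP70 B2 with replicate 1 of Long 72 h left out and 0.0624 for DNAJC17 with replicate 1 of Short 12 h left out).

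The transcripts numbered on either side of g2185 were examined as possible neighbours in the genome. Their coordinates and strands were not used here, so whether they lie next to it was not tested. Of the 23 transcripts of the 10 gene numbers on each side, 19 had a mean of at least 1 TPM and were tested. Of these, 3 were called higher and 4 lower at some time point, against 6.17% and 12.9% of all transcripts. Whether such small counts depart from these shares was not tested. The number called lower was 2 without any 1 of the Short non-exposed libraries, without replicate 1 of Short 1 h, Short 12 h or Long 72 h, or without replicate 3 of Short 2 h. The next number, g2186, has no protein name in the study's tables. It was at 2.37, 9.69 and 11.9 TPM in Short non-exposed libraries and at 175, 103 and 138 TPM at Short 12 h. Its log2 fold change there was 4.14 (SE 0.42, limma adjusted p = 3.22e-06), kept with any 1 library left out. It was called at Short 2, 4, 5, 6, 9 and 12 h. At 3 h it was not called (1.57, SE 0.42, limma adjusted p = 0.0718). Its 3 h libraries (18.7, 30.0 and 18.7 TPM) still lay above all its non-exposed libraries, which is the rule that set the hours of g2185.

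In Long, g2186 was at 57.0, 33.2 and 67.5 TPM at 12 h and at 67.8, 108 and 78.6 TPM at 18 h. The Long non-exposed libraries were at 23.1 and 1.13 TPM and listed at 0 in the third, and none of the 6 Long time points was called (lowest limma adjusted p = 0.0599, at 18 h). Over the 16 group means its log2 level correlated with that of g2185 with r = 0.877, which placed it 35th of 12087 transcripts. The library kit does not keep strand, and whether reads were shared between g2185 and g2186 was not tested.

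The other neighbours did not move as a block. g2187, between g2186 and COX15 (g2188), was at -0.24 on the log2 scale at Short 9 h (SE 0.41) and was called at no time point, and g2184, on the other side, was at 0.74 for its first transcript (SE 0.84) and -0.16 for its second (SE 0.96). Apart from g2186 and COX15, the third neighbour called higher was transcript 2 of g2191, matched to the membrane-bound transcription factor NFE2L1 that is known to induce proteasome genes, at Short 5 h by 1.27 (SE 0.33, limma adjusted p = 0.0335). Transcript 1 of the same gene was called lower at Short 5 h (log2 fold change -3.11, SE 0.85, limma adjusted p = 0.0408). How reads were divided between these transcripts is uncertain, and both calls were lost with single libraries left out (up to adjusted p = 0.124 for transcript 2 and 0.156 for transcript 1, each without Short non-exposed replicate 1, and 0.200 for transcript 1 without Short 5 h replicate 2).

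The other lower calls rested on few libraries. The first transcript of g2184 was lower at Long 36 h (log2 fold change -3.22, SE 0.77, limma adjusted p = 0.0469, 0.207 without Long 36 h replicate 2), its second at Long 72 h (-2.40, SE 0.55, adjusted p = 0.0112, 0.0604 without Long 72 h replicate 1), and g2190 at Short 2 h (-3.05, SE 0.72, adjusted p = 0.0425, 0.247 without Short 2 h replicate 3).

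**Figure D4:**
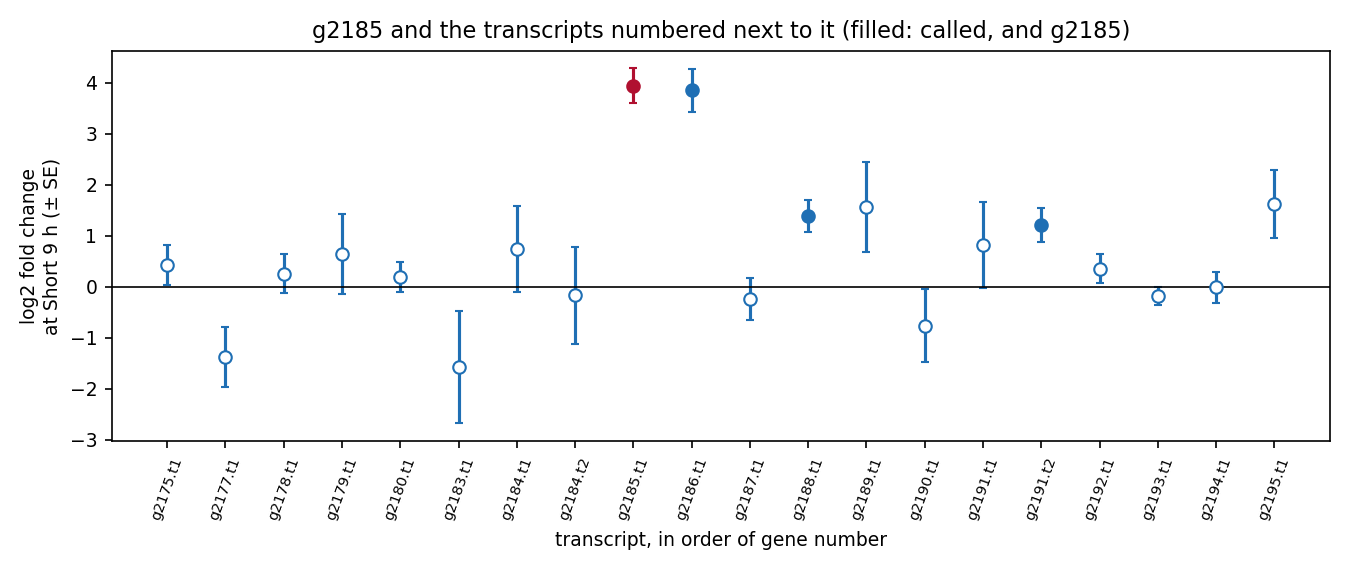
log2 fold change at Short 9 h (vertical axis, with SE) for g2185 (red) and the 19 tested transcripts of neighbouring gene numbers (blue), in order of gene number; filled points were called, except that g2185 is filled without a test. g2185 (3.95) and g2186 (3.85) stand above the rest, with COX15 (g2188) at 1.39.

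The transcripts whose profile was most like that of g2185 were ranked by Pearson r of log2(TPM + 1) over the 16 group means. These groups share their libraries and the non-exposed baseline between transcripts, so the r values are a description. Of 12087 other transcripts 15 had r above 0.9 and 3 had r under -0.9, and the median r was 0.123. The first was reticulon-4 (g2943, r = 0.976), a protein that shapes the endoplasmic reticulum, followed by GHITM (g13195, r = 0.968), putative glycerol kinase 5 (g6843, r = 0.963) and NGLY1 (g12708, r = 0.953). The E3 ubiquitin ligase RNF170 (g601, r = 0.944), SELO (g5548, r = 0.943), NudC domain-containing protein 1 (g9181, r = 0.937) and g4243 (r = 0.935), which has no protein name, completed the first 8.

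These 8 transcripts differed in how far they moved. Reticulon-4 rose from a mean of 429 TPM to 1388 TPM at Short 9 h, a log2 fold change of 1.73 (limma adjusted p = 1.08e-05), and glycerol kinase 5 from 25.1 to 123 TPM, a log2 fold change of 2.31 (limma adjusted p = 0.0021). The last of them, g4243, went from 145 to 234 TPM and was not called (log2 fold change 0.72, limma adjusted p = 0.133). In Long 12 h libraries only GHITM (1.17, limma adjusted p = 0.0468) and SELO (2.25, limma adjusted p = 0.0264) of the 8 were called, and none was called at Long 72 h, where their log2 fold changes ran from -0.45 for glycerol kinase 5 to 0.34 for NGLY1. The likeness thus concerned the shape of the profile, since g2185 changed by 3.95 at Short 9 h and none of the 8 by more than 2.50.

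Leaving out the groups at the ends of the range of g2185, Short non-exposed and Short 9 h, r was 0.973 for reticulon-4, 0.965 for GHITM and 0.926 for NGLY1. Over the 48 single libraries r was 0.912, 0.926 and 0.891 for these, and 0.654 for g4243, which then ranked 149th. Among the lists, the median r was 0.753 for the iron-sulfur transcripts, 0.765 for ubiquitin-proteasome transcripts, 0.682 for the respiratory chain and ubiquinone, 0.413 for mitochondrial chaperones, proteases and translation and 0.299 for the other mitochondrial transcripts. It was 0.117 for the cytosolic chaperones and 0.186 for the neighbours by number, against 0.123 for all transcripts. Except for the neighbours, the lists came from transcripts found higher on these same samples, so their r is not independent evidence.

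**Figure D5:**
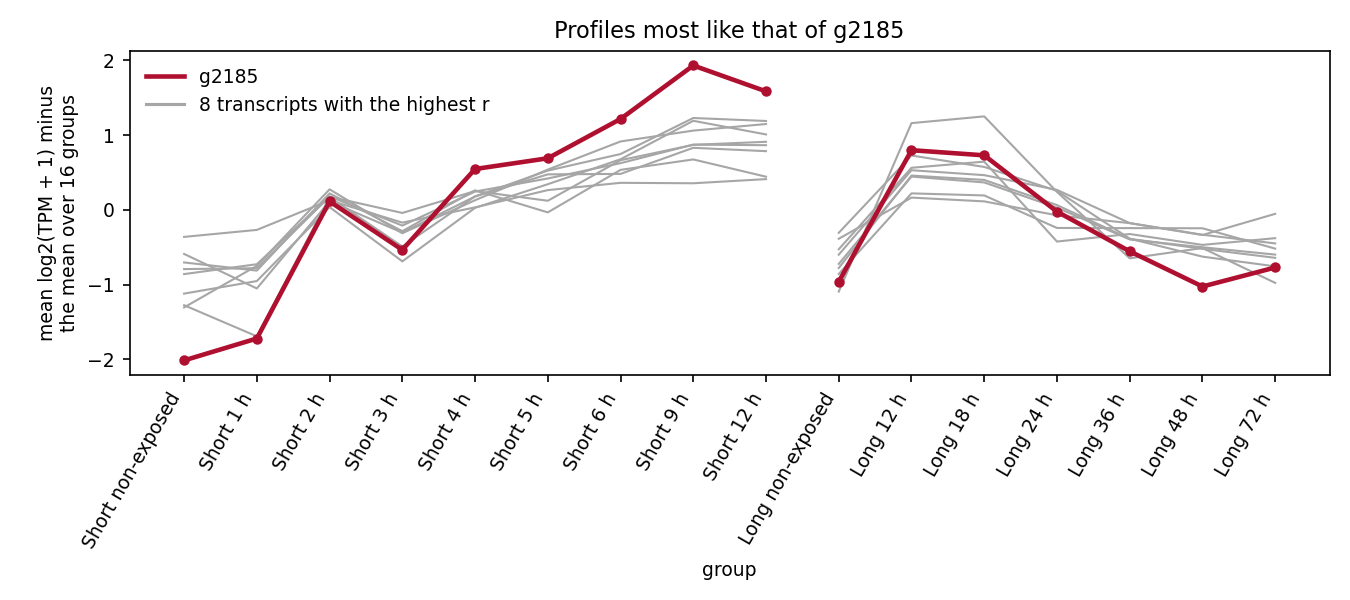
Mean log2(TPM + 1) of each group (horizontal axis) minus the mean over the 16 groups (vertical axis) for g2185 (red) and the 8 transcripts with the highest r (grey). In all curves, picked for their likeness to g2185, the group means rise at 2 h, are lower at 3 h and fall after 18 h. The curve of g2185 spans the widest range, and its 2 h and 3 h libraries overlapped.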

How the data were processed

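The submitters' processing notes name bcl2fastq, FastQC, kallisto, BWA and DESeq2. The deposited table used here holds kallisto TPM values that the authors estimated for predicted transcripts of R. varieornatus, 1 column for each of the 48 libraries, each adding up to 1000000. All columns matched a label (0 without a sample). The authors' BWA and DESeq2 calls were not used. Libraries were polyA-selected and single-end, and depth cannot be read from TPM, so no counting interval is given.

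Transcripts with a mean of at least 1 TPM (12088 of 14532) were fitted per course as log2(TPM + 1) with limma 3.58.1 (R 4.3.3; eBayes with a trend), with Benjamini-Hochberg adjustment within each time point. Fold changes on this scale understate the change of low transcripts. For the 12 h comparison all 16 groups were fitted together. The authors' thresholds for their DESeq2 test were kept (adjusted p under 0.05, log2 fold change beyond 1). The fit was also run on simulated data with independent noise and changes beyond the threshold. That setting cannot speak for calls near the threshold or for libraries with many transcripts at 0. Summaries and figures used Python 3.11.15, numpy 2.4.6, pandas 2.3.3 and matplotlib 3.10.9. Gene g2185 and all lists were chosen with earlier results of these data known. Named were g2185, every iron-sulfur transcript, up to 4 called transcripts with the largest change in each other list, the called neighbours, the 8 transcripts of highest r and vitellogenin; others named with a value were chosen after their values were seen. Replicates are separate samples of pooled animals by their labels, so p-values measure the spread between these libraries. The fits and their SEs, those of the steps between hours included, treat libraries of different hours as unrelated. By the methods, such libraries may come from animals exposed together. The table pairs no identifier with RefSeq locus tags, so no sequence or coordinate is given. Alternatives were pseudocounts of 0.1 and 5, no filter or a mean of at least 5 TPM, median scaling, quantile normalization, a replicate block, a fit that held just the exposed and non-exposed libraries compared, leaving out each library, and leaving out the 5 libraries with more than 250 abundant transcripts at 0.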

Additional observations from a re-analysis of the deposited data

Results flagged for a closer look

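At 12 h, 3 of the 79 listed or neighbouring transcripts had all Short libraries on one side of their non-exposed mean and all Long libraries on the other. MPC2 (g4629) had a mean log2 change of -0.78 in Short and 0.73 in Long, a difference of -1.52 (SE 0.50). The unnamed neighbour g2177 had -0.62 and 0.75, a difference of -1.37 (SE 0.91), and g2178 had -0.74 and 0.20, a difference of -0.94 (SE 0.51). In a limma fit of all 16 groups the Benjamini-Hochberg adjusted p-values of these differences were 0.403, 0.802 and 0.727 over 12088 transcripts, of which 5 passed, so none of the 3 was called. Groups of 3 libraries are too small for a check of single outlying libraries.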

How the results depend on the processing

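The fold changes of g2185 kept their direction from Short 2 h to Long 36 h under every alternative run. With 1 library left out they ran from -0.08 to 0.58 at Short 1 h, 3.57 to 4.23 at Short 9 h, 3.23 to 3.89 at Short 12 h and 1.61 to 1.96 at Long 12 h. The counts of called transcripts were less stable. With just the groups compared in the fit, 4 iron-sulfur, 3 respiratory chain and ubiquinone, 1 mitochondrial chaperone, protease and translation and 8 ubiquitin-proteasome transcripts were called higher, 0 other mitochondrial transcripts were called lower, and 2 neighbours were called lower. Median scaling left 3 transcripts of the mitochondrial chaperone, protease and translation list called higher, and 0 called lower, as with a pseudocount of 5, quantile normalization or the 5 libraries with more than 250 abundant transcripts at 0 left out (an alternative chosen after seeing the data). Ubiquitin-proteasome transcripts called lower were 1 under quantile normalization and 1 without these 5 libraries, and neighbours called lower were 2 with a pseudocount of 0.1 or no filter and 1 with a replicate block. With 1 library left out, the counts called higher and lower ran from 6 to 9 and 0 to 1 for iron-sulfur, 5 to 7 and 0 for the respiratory chain, 3 to 8 and 0 to 2 for mitochondrial chaperones, 5 to 11 and 0 to 2 for other mitochondrial, 1 to 4 and 0 for cytosolic chaperones, 8 to 14 and 0 to 3 for ubiquitin-proteasome, and 2 to 3 and 2 to 5 for neighbours. Without Long 24 h replicate 1 the counts called higher were the highest for 4 lists, the ubiquitin-proteasome, both chaperone and the other mitochondrial ones. Of 79 listed and neighbouring transcripts, 50 were called. Of these calls, each at its time point of largest change, 30 were lost with some library left out and 33 in the fit of just the groups compared, those of NDUS1 (adjusted p = 0.0935), NDUS2 (0.0893), COQ7 (0.172), cytochrome c (0.163) and COX15 (0.316) among them. By replicate number, no pairing of exposed with non-exposed samples was seen. Over 42 pairs of the same number the correlation of deviations ran from -0.15 to 0.116, and no comparison had all pairs above 0.1. Of 42 libraries, 9 correlated best with their own number. The methods do not say that equal numbers share a source, so this check cannot show that pairing is absent. Pairing between exposed time points was not tested. The block left the fold changes of g2185 as they were and ended the calls of 6 transcripts. Depth cannot be judged from TPM.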
